A study of Homo sapiens with 12 samples.

Results

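The 10 genes described here encode parts of the epithelial junctions and cytoskeleton, and a secretory protein of luminal breast cells. They are the tight junction genes CLDN1, CLDN4 and OCLN, the desmosomal plaque genes DSP and JUP, the keratin genes KRT7, KRT8, KRT18 and KRT19, and the luminal gene AGR2. They were taken by symbol from the deposited gene table, and make up 10 of its 57730 rows. Each symbol had 1 row, and all 10 passed the filter on low counts that left 14706 genes for testing. RNA was measured by sequencing of polyA-selected RNA in 12 libraries of LM3 cells, which per the labels are MDA-MB-231 breast cancer cells derived from lung metastases. The 4 groups of 3 libraries were shACSL5_PA (labelled shACSL5+PA, a short hairpin RNA against ACSL5, with palmitic acid), shControl_PA (labelled shControl+PA, a control hairpin, with palmitic acid), shACSL5 (the ACSL5 hairpin, no palmitic acid) and shControl (the control hairpin, no palmitic acid). All cells grew in DMEM with serum, and every group carried a hairpin. The hairpin sequences, the number of hairpins or clones, and the dose, time and vehicle of palmitic acid are absent from the labels. An effect of the vehicle and one of the fatty acid therefore cannot be told apart. Nor can loss of ACSL5 be told apart from another effect of its hairpin or from a difference between clones. Knockdown below names the comparison of ACSL5 hairpin cells with control hairpin cells. The labels also do not state whether a group's libraries are separate cultures, and the p-values then cover the spread among these libraries alone, possibly a technical one.

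Epithelial cells are held together by several belts of membrane protein complexes. Claudins and occludin form the tight junction that seals the space between cells, and desmosomes rivet neighbours together by linking desmosomal cadherins, through plakoglobin (JUP) and desmoplakin (DSP), to keratin filaments. Keratin filaments are built from pairs of 1 type II chain (KRT7 or KRT8) and 1 type I chain (KRT18 or KRT19), the set that simple and luminal breast epithelium uses. Carcinoma cells that take on mesenchymal traits usually lose many of these genes, and MDA-MB-231 is a line known for such a state. ACSL5 activates long-chain fatty acids, palmitic acid among them, by joining them to coenzyme A.

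Library totals ran from 16788694 to 21814751 counts. ACSL5 had 14.9, 13.3 and 17.6 CPM (read counts scaled to library size with TMM factors) in shACSL5_PA, against 189, 194 and 190 CPM in shControl_PA. Without palmitate it had 10.9, 10.2 and 12.5 CPM in shACSL5, against 142, 143 and 145 CPM in shControl. The libraries carried the markers of a claudin-low breast cancer line, with VIM at 2620, 3560, 2620 and 3950 CPM on average in shACSL5_PA, shControl_PA, shACSL5 and shControl. CDH1, the classical epithelial cadherin, did not pass the filter on low counts, and neither did the luminal receptor genes ESR1 and PGR. Of the markers of other cells, the basal keratin KRT5, the T cell gene CD3E, and the lung genes SFTPC, SFTPA1 and SCGB1A1 were at 0 counts in all 12 libraries. Other lung markers were not, and NKX2-1 averaged 26.7 CPM in shACSL5_PA and 38.5 CPM in shControl_PA, and 36.7 CPM in shACSL5 and 43.6 CPM in shControl. The summed level of 6 immune markers, nearly all of it CD68, was 45.3 to 54 CPM in shACSL5_PA and 35.7 to 37.1 CPM in shControl_PA, and 47.9 to 53.2 CPM in shACSL5 and 35 to 37.8 CPM in shControl. That of the 4 endothelial markers found of 5 was 1.42 to 2.1 CPM in shACSL5_PA and 2.13 to 2.87 CPM in shControl_PA, and 1.56 to 1.95 CPM in shACSL5 and 3.63 to 5.87 CPM in shControl. The 6 lung markers summed to 26.5 to 28.8 CPM in shACSL5_PA and 37.3 to 42.2 CPM in shControl_PA, and 37.5 to 38.2 CPM in shACSL5 and 43.8 to 46.4 CPM in shControl. The 6 fibroblast markers summed to 18.4 to 19.3 CPM in shACSL5_PA and 13.2 to 14.7 CPM in shControl_PA, and 25.9 to 30.1 CPM in shACSL5 and 20.6 to 22.7 CPM in shControl. The 5 claudin-low markers summed to 5340 to 5590 CPM in shACSL5_PA and 6530 to 6740 CPM in shControl_PA, and 5450 to 5630 CPM in shACSL5 and 7130 to 7390 CPM in shControl. Most of that sum was VIM and MSN, and the 5 did not move as a set. By the edgeR test described below, VIM and MSN were called lower in shACSL5 than in shControl, and 3 (CD44, AXL and CAV1) were not called. With palmitate 4 were called lower, and AXL was called higher (log2 0.23, SE 0.032, adjusted p = 2.47e-06). The 6 basal markers summed to 2.53 to 4.41 CPM in shACSL5_PA and 4.2 to 5.14 CPM in shControl_PA, which overlap, and 2.01 to 2.85 CPM in shACSL5 and 4.1 to 6.2 CPM in shControl. The immune and fibroblast sums were higher and the endothelial, lung and claudin-low sums lower in knockdown libraries with and without palmitate, and their part in the results was not tested.

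The promoters of 4 of the genes are shown because they stand for both patterns described below: DSP and OCLN were raised by palmitate in knockdown cells, and no such change was called for CLDN4 and AGR2. CLDN1 and KRT18 were raised as well and are not shown. The sequences are the 250 bases before the RefSeq start on the GRCh38.p14 build, read 5′ to 3′ on the strand of the gene. Capitals mark the E-box CAGGTG in either orientation, a word bound by the SNAIL and ZEB repressors of epithelial genes.
DSP, chr6:7541421-7541670, plus strand: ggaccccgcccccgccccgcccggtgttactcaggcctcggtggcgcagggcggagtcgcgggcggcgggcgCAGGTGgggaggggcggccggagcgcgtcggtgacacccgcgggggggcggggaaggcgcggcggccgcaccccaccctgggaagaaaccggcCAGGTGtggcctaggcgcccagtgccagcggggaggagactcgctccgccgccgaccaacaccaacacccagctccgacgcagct
OCLN, chr5:69492297-69492546, plus strand, the first of its 2 listed starts: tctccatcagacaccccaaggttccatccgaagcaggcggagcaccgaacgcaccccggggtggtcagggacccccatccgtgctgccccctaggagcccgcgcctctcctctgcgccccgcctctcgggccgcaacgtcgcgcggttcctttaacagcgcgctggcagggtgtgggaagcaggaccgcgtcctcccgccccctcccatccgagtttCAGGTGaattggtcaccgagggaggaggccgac
CLDN4, chr7:73830746-73830995, plus strand: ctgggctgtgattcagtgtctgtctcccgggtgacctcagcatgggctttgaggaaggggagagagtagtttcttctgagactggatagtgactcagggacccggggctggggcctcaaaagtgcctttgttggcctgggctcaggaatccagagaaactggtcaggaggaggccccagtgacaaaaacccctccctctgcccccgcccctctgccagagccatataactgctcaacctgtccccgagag
AGR2, chr7:16805000-16805249, minus strand: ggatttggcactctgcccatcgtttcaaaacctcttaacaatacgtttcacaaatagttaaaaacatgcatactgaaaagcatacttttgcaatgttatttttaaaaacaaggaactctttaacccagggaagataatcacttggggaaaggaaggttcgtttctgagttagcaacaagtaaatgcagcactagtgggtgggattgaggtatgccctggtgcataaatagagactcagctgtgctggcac
Of the 10 genes, 7 had an entry among the RefSeq promoters, and KRT7, KRT18 and KRT19 had none. The E-box was found 2 times before DSP, 1 time before each start of OCLN, and 2 times before 1 of the 2 starts of JUP. It was not found in the windows of CLDN1, CLDN4, KRT8 and AGR2. Among the genes not shown, CLDN1 lacks the word and was raised by palmitate in knockdown cells (log2 0.63). JUP holds it, and no palmitate change was called for JUP in those cells (95% interval -0.12 to 0.12). A link between the word and the palmitate change was not tested. Of 35116 promoter windows of this length 17.5% hold the word. The AP-2 word GCCNNNGGC, which reads the same on both strands and is held by 19.8% of the windows, was found before the other start of JUP. These matches describe the letters and do not show that a factor binds there.

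Per kilobase of annotated exon, KRT18 had the highest level of the 10 genes in every group, at 57.2 ± 1.98, 67.9 ± 1.8, 52.7 ± 1.69 and 69.1 ± 0.686 CPM per kilobase in shACSL5_PA, shControl_PA, shACSL5 and shControl (SD, n = 3 each). KRT8 and KRT7 followed, and their ranges overlapped in shControl, at 43.4 ± 1.5 and 43.1 ± 1.52 CPM per kilobase. KRT19 and JUP came next, and their ranges overlapped in shACSL5_PA. CLDN4, DSP and AGR2 came lower, and the ranges of DSP and AGR2 overlapped in shControl_PA and in shControl, as did those of CLDN4 and AGR2 in shControl_PA. OCLN and CLDN1 were the lowest pair in shControl_PA and shControl, with OCLN at 2.16 ± 0.149 and 2.34 ± 0.22 CPM per kilobase and CLDN1 at 0.964 ± 0.228 and 0.879 ± 0.266 CPM per kilobase. In knockdown cells this order was turned, with OCLN at 1.17 ± 0.114 and CLDN1 at 2.1 ± 0.101 CPM per kilobase in shACSL5_PA, and OCLN at 0.81 ± 0.0651 and CLDN1 at 1.36 ± 0.0704 CPM per kilobase in shACSL5.

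**Figure D1:**
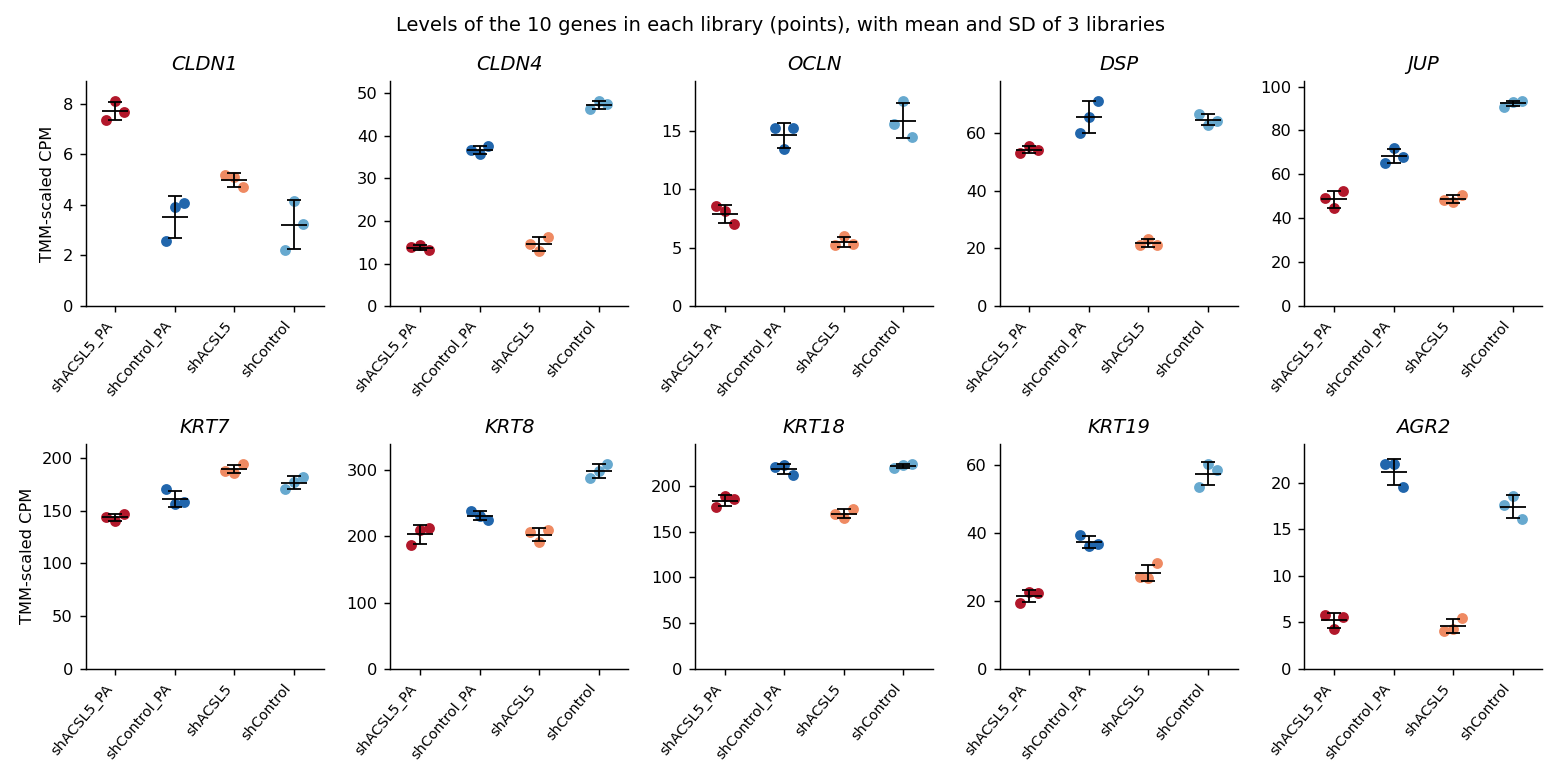
TMM-scaled CPM of each gene in each library, 1 panel per gene, with points for libraries and bars for the mean and SD of the 3 libraries of a group. CLDN4 and AGR2 are low in both knockdown groups, and CLDN1 is highest in shACSL5_PA. DSP is low in shACSL5 (21.1 to 23.3 CPM) and lies just under the control libraries in shACSL5_PA (53.1 to 55.6 CPM).

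Knockdown of ACSL5 without palmitate lowered most of these genes. AGR2, CLDN4, DSP and OCLN fell to 26.5%, 30.9%, 33.9% and 34.6% of the shControl level, KRT19 to 49.3% and JUP to 52.7%, while the abundant keratins KRT8 and KRT18 kept 67.7% and 76.3%. CLDN1 rose to 155% and KRT7 to 107% of the control. A gene was called when its adjusted p was under 0.05 in edgeR's quasi-likelihood test, adjusted by Benjamini-Hochberg over all 14706 genes, and all adjusted p-values below were obtained in this way. By that rule 8 of the 10 genes fell and 2 rose, in a comparison where 62.3% of all genes were called, 29.7% higher and 32.6% lower. The median log2 change was -0.972 over the 10 genes and -0.0196 over all genes tested. The 10 genes were chosen with earlier results of these data known. Their counts and medians, here and below, are therefore no test of the set against all genes. With palmitate in both groups 9 of the 10 fell and 1 rose, where 50.5% of all genes were called, 24.4% higher and 26.1% lower. There the median was -0.38 over the 10 genes and -0.00285 over all genes. The 3 knockdown and 3 control libraries did not overlap for any of the 10 genes. With palmitate 1 lay higher and 9 lower, where the groups did not overlap for 56.9% of all genes, 27.4% higher and 29.5% lower. Without palmitate 2 lay higher and 8 lower, where this held for 66.1% of all genes, 31.6% higher and 34.5% lower. In bulk RNA, fewer cells that express a gene and less of its RNA per cell cannot be told apart.

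Fewer were called with palmitate. In knockdown cells it raised 4 of the 10 (DSP, CLDN1, OCLN and KRT18) and lowered 2 (KRT7 and KRT19), where 21.9% of all genes were called, 12.1% higher and 9.78% lower. Treated and untreated knockdown libraries did not overlap for 6 of the 10, 4 higher and 2 lower, against 35.5% of all genes, 18.8% higher and 16.6% lower. In control cells it lowered 5 (CLDN4, JUP, KRT7, KRT8 and KRT19) and the other 5 were not called, where 28.7% of all genes were called, 15.1% higher and 13.5% lower. Treated and untreated control libraries did not overlap for 5 of the 10, 1 higher and 4 lower, against 41.9% of all genes, 21.1% higher and 20.8% lower. With library sizes alone as the scaling, 35.9% of all called genes in that comparison were higher, against 52.8% with TMM factors. The interaction (the palmitate change in shACSL5 cells less the one in shControl cells) was called for 5 of the 10 genes, 4 of them positive, where 14.5% of all genes were called, 7.15% higher and 7.39% lower. With library sizes alone 59.9% of the genes called for the interaction were positive, against 49.2% with TMM factors. The knockdown comparison and the palmitate comparison in control cells share the shControl libraries, and the interaction uses all 4 groups.

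**Figure D2:**
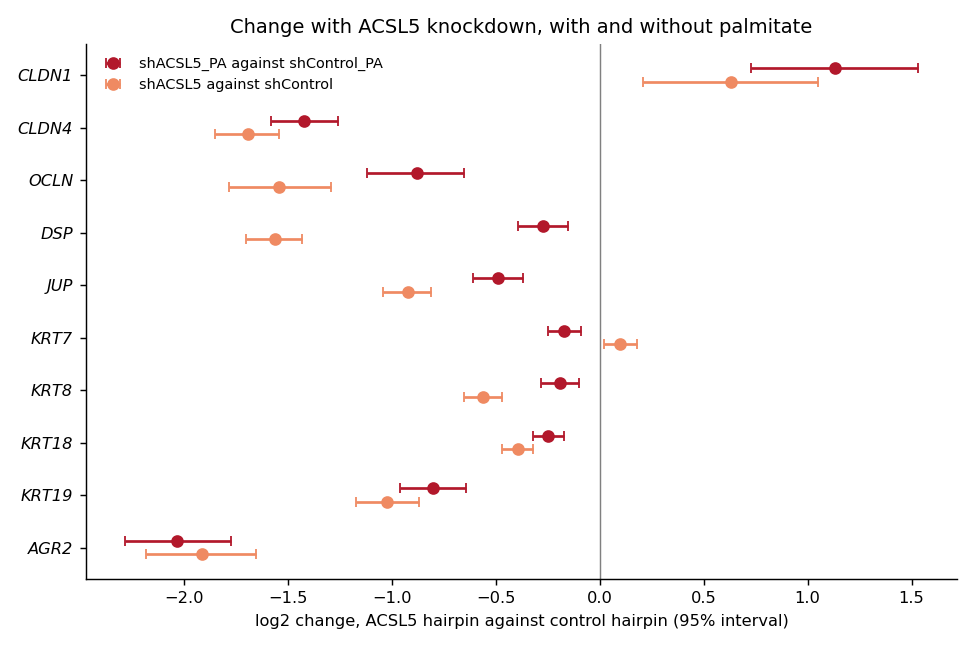
Log2 change with ACSL5 knockdown for each gene, with palmitate (shACSL5_PA against shControl_PA, dark) and without (shACSL5 against shControl, light), with 95% intervals from the edgeR fit. All intervals lie clear of 0, the points of CLDN1 lie right of 0, and KRT7 lies at -0.17 with palmitate and 0.10 without.

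Among the tight junction genes, CLDN4 (GRCh38 chromosome 7, 73799542 to 73832693, plus strand), which encodes claudin-4, had 13.8, 14.3 and 13.1 CPM in shACSL5_PA, against 36.8, 35.8 and 37.6 CPM in shControl_PA. Without palmitate it had 14.6, 12.9 and 16.3 CPM in shACSL5, against 46.3, 48.1 and 47.5 CPM in shControl. All knockdown libraries lay below all control libraries, with or without palmitate. The log2 change with the knockdown was -1.42 (SE 0.077, adjusted p = 8.68e-13) with palmitate and -1.69 (SE 0.075, adjusted p = 9.75e-15) without. Palmitate lowered CLDN4 in control cells by a log2 change of -0.36 (SE 0.068, adjusted p = 0.000304). In knockdown cells the change was -0.09 (95% interval -0.27 to 0.08). The interaction was 0.27 (95% interval 0.04 to 0.50, adjusted p = 0.103) and was called without shACSL5 replicate 3 (0.356, adjusted p = 0.033). A share of 0.612% of the 50-base words of its transcripts also occurs in other genes, CLDN3 first among them.

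OCLN (chromosome 5, 69492292 to 69558104, plus strand) encodes occludin, a tight junction protein that crosses the membrane 4 times. It had 8.52, 8.14 and 7.04 CPM in shACSL5_PA, against 15.2, 13.4 and 15.2 CPM in shControl_PA. Its levels without palmitate were 5.18, 5.98 and 5.27 CPM in shACSL5, against 15.6, 17.5 and 14.5 CPM in shControl. The highest knockdown library without palmitate lay below the lowest with it, and both sets lay below all controls. The knockdown changed OCLN by a log2 value of -0.88 (SE 0.11, adjusted p = 7.08e-07) with palmitate and -1.54 (SE 0.12, adjusted p = 9.86e-11) without. Palmitate raised it by 0.54 (SE 0.12, adjusted p = 0.00327) in knockdown cells, and the change in control cells was -0.12 (95% interval -0.34 to 0.10). The interaction was called, at 0.65 (SE 0.16, adjusted p = 0.00864). A share of 8.8% of the 50-base words of its transcripts recurs elsewhere, chiefly in the pseudogene OCLNP1, so some reads could have been split or dropped by the authors' counting.

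CLDN1 (chromosome 3, 190305701 to 190322475, minus strand), which encodes claudin-1, moved the other way from a low level. It had 7.35, 8.09 and 7.69 CPM in shACSL5_PA, against 2.57, 3.93 and 4.09 CPM in shControl_PA. In untreated cells it had 5.18, 5.09 and 4.69 CPM in shACSL5, against 2.22, 4.17 and 3.26 CPM in shControl. The values rest on 453, 192, 288 and 177 summed counts in shACSL5_PA, shControl_PA, shACSL5 and shControl. CLDN1 rose with the knockdown by 1.13 (SE 0.19, adjusted p = 3.8e-05) with palmitate and by 0.63 (SE 0.2, adjusted p = 0.00977) without. Leaving out shControl replicate 1, the lowest library, ended the call without palmitate (0.424, adjusted p = 0.0727). Palmitate raised CLDN1 in knockdown cells by 0.63 (SE 0.18, adjusted p = 0.0172), a call lost without shACSL5 replicate 3 (0.586, adjusted p = 0.0603) or shACSL5_PA replicate 2 (0.591, adjusted p = 0.0597). The interaction of 0.50 (95% interval -0.09 to 1.08) was not called.

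DSP (chromosome 6, 7541575 to 7586717, plus strand) encodes desmoplakin, the plaque protein that ties desmosomes to keratin filaments. It had 53.1, 55.6 and 54.2 CPM in shACSL5_PA, against 60, 65.6 and 71 CPM in shControl_PA. Without palmitate it had 21.2, 23.3 and 21.1 CPM in shACSL5, against 66.7, 63 and 64.1 CPM in shControl. The untreated knockdown libraries were low and stood apart from the other 9, and the treated knockdown libraries lay just under the controls. As a share of the control with the same treatment, DSP stood at 82.9% with palmitate and 33.9% without. The log2 change with the knockdown was -0.27 (SE 0.058, adjusted p = 0.000474) with palmitate and -1.56 (SE 0.065, adjusted p = 3.21e-15) without. Palmitate raised DSP 2.49-fold in knockdown cells (log2 1.32, SE 0.066, adjusted p = 1.97e-12), against a log2 change of 0.02 (95% interval -0.10 to 0.14) in control cells, where the sign turned with library sizes alone (-0.027) and without shControl_PA replicate 3 (-0.039). The interaction of 1.29 (SE 0.088, adjusted p = 1.76e-09) was the largest of the 10 genes and was called under every alternative run, at 1.23 to 1.36.

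JUP (chromosome 17, 41754604 to 41786931, minus strand) encodes plakoglobin, which joins desmosomal cadherins to desmoplakin and also sits in adherens junctions. It had 49.1, 44.7 and 52.2 CPM in shACSL5_PA, against 65.1, 71.8 and 68.1 CPM in shControl_PA. Untreated, it had 48.4, 47.2 and 50.5 CPM in shACSL5, against 90.9, 93 and 93.2 CPM in shControl. Both knockdown groups stood at nearly the same level, and the control groups differed. JUP fell with the knockdown by 0.49 on the log2 scale (SE 0.056, adjusted p = 1.47e-07) with palmitate and by 0.92 (SE 0.055, adjusted p = 1.29e-12) without. Palmitate lowered it in control cells by 0.44 (SE 0.053, adjusted p = 1.8e-06), and in knockdown cells the 95% interval of the change ran from -0.12 to 0.12. The interaction was 0.43 (SE 0.078, adjusted p = 0.000624).

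The plaque genes DSP and JUP thus both fell with the knockdown, with and without palmitate, by different amounts. In knockdown cells palmitate raised DSP, and no change was called for JUP. In control cells it lowered JUP, and no change was called for DSP. The effect of palmitate on their ratio was not tested. The DSP to JUP ratio of CPM, which does not depend on the scaling of a library, was 1.08, 1.25 and 1.04 in shACSL5_PA, against 0.921, 0.913 and 1.04 in shControl_PA. Without palmitate it was 0.437, 0.494 and 0.419 in shACSL5, against 0.734, 0.677 and 0.688 in shControl. Averaged over both treatments, the log2 ratio in knockdown minus control libraries was -0.208 (2-sided exact permutation test within treatment, p = 0.18, with 0.005 the smallest it can give). The untreated libraries alone gave -0.639 (exact p = 0.1, the smallest 3 against 3 can give) and the palmitate libraries 0.224 (exact p = 0.2), so the average joins opposite signs.

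**Figure D3:**
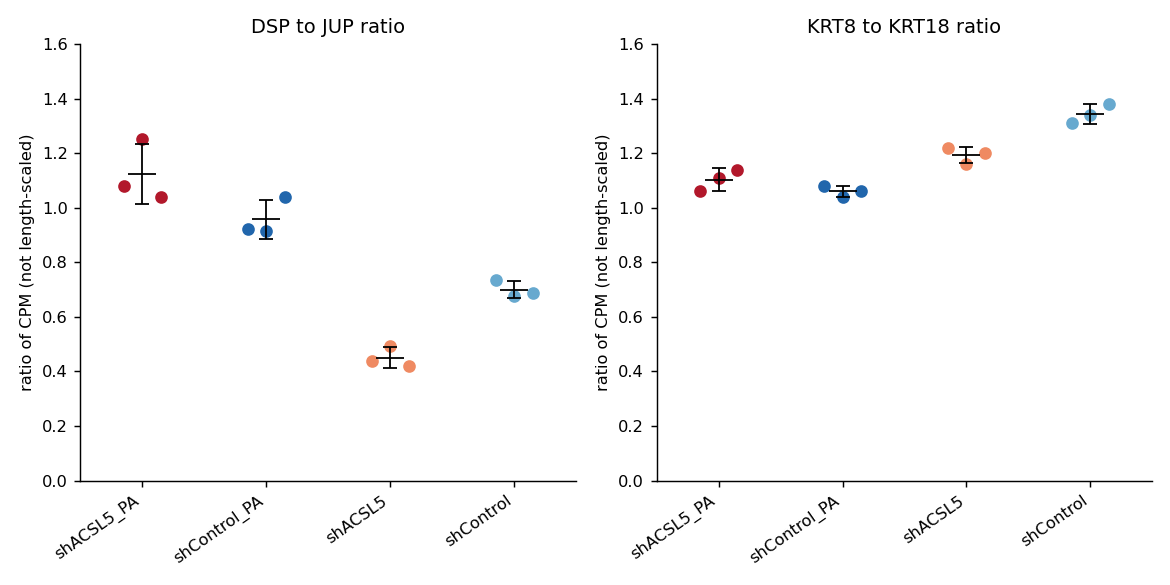
Ratio of CPM of DSP to JUP (left) and of KRT8 to KRT18 (right) in each library, with points for libraries and bars for the mean and SD of 3. The DSP to JUP ratio is lowest in shACSL5 (0.419 to 0.494) and the KRT8 to KRT18 ratio is highest in shControl (1.31 to 1.38).

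Of the type II keratins, KRT8 (chromosome 12, 52897187 to 52949954, minus strand) is the main partner of KRT18 in simple epithelia. It had 187, 209 and 213 CPM in shACSL5_PA, against 238, 231 and 225 CPM in shControl_PA. In untreated cells it had 206, 191 and 210 CPM in shACSL5, against 288, 299 and 309 CPM in shControl. The untreated control libraries were the highest, and the knockdown groups overlapped each other. KRT8 fell with the knockdown by 0.19 on the log2 scale (SE 0.045, adjusted p = 0.00114) with palmitate and by 0.56 (SE 0.044, adjusted p = 1.7e-10) without. Palmitate lowered it in control cells by 0.37 (SE 0.044, adjusted p = 1.26e-06), and in knockdown cells the 95% interval was -0.09 to 0.10. The interaction was called, at 0.37 (SE 0.063, adjusted p = 0.000312).

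KRT7 (chromosome 12, 52232520 to 52252186, plus strand), the other type II keratin and a marker of simple and ductal epithelia, did not follow KRT8. It had 144, 140 and 147 CPM in shACSL5_PA, against 170, 156 and 158 CPM in shControl_PA. Untreated, it had 188, 186 and 194 CPM in shACSL5, against 170, 177 and 182 CPM in shControl. Knockdown libraries were thus the lower ones with palmitate and the higher ones without, by small margins. The log2 change was -0.17 (SE 0.04, adjusted p = 0.00121) with palmitate and 0.10 (SE 0.039, adjusted p = 0.0275) without. The call without palmitate was lost with library sizes alone (0.077, adjusted p = 0.0854), without shControl replicate 1 (0.074, adjusted p = 0.144), shControl replicate 2 (0.107, adjusted p = 0.0517) or shACSL5 replicate 3 (0.085, adjusted p = 0.0993). Palmitate lowered KRT7 by 0.40 (SE 0.04, adjusted p = 1.81e-07) in knockdown cells. In control cells it lowered KRT7 by 0.13 (SE 0.04, adjusted p = 0.018). That call ended when shControl replicate 2 (adjusted p = 0.0613), shControl replicate 3 (0.0934), shControl_PA replicate 2 (0.105) or shControl_PA replicate 3 (0.0766) was left out. The interaction was -0.27 (SE 0.056, adjusted p = 0.0021), the one negative call among the 10 genes. KRT7 shares 7.67% of its exon bases with KRT7-AS and KRT87P on the opposite strand, and the labels do not state whether the counting used strand.

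KRT18 (chromosome 12, 52948871 to 52952901, plus strand), the type I partner of KRT8, changed least among the genes that fell without palmitate. It had 177, 189 and 186 CPM in shACSL5_PA, against 221, 223 and 212 CPM in shControl_PA. Its untreated levels were 169, 165 and 175 CPM in shACSL5, against 220, 223 and 224 CPM in shControl. All knockdown libraries were below all control libraries. The log2 change was -0.25 (SE 0.036, adjusted p = 4.58e-06) with palmitate and -0.39 (SE 0.036, adjusted p = 2.56e-09) without. Palmitate raised KRT18 in knockdown cells by 0.12 (SE 0.036, adjusted p = 0.0216), a call lost with upper quartile factors (adjusted p = 0.0613), with library sizes alone (0.055) and with the 2 compared groups fitted alone (0.065). It was also lost without shACSL5 replicate 1 (0.0709), shACSL5 replicate 2 (0.0855), shACSL5_PA replicate 2 (0.103) or shACSL5_PA replicate 3 (0.0571). The interaction of 0.14 (SE 0.051, adjusted p = 0.0643) was called with library sizes alone (0.0249) and without shACSL5 replicate 3 (0.0379) or shACSL5_PA replicate 1 (0.0337).

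KRT8 and KRT18 are neighbours on chromosome 12 on opposite strands, and 16.3% of the exon bases of KRT18 lie under exons of KRT8. The KRT8 to KRT18 ratio was 1.06, 1.11 and 1.14 in shACSL5_PA, against 1.08, 1.04 and 1.06 in shControl_PA. Without palmitate it was 1.22, 1.16 and 1.20 in shACSL5, against 1.31, 1.34 and 1.38 in shControl. The untreated controls were highest, and the treated groups overlapped. The log2 ratio in knockdown minus control libraries was -0.058 over both treatments (exact permutation p = 0.205), 0.058 with palmitate (exact p = 0.3) and -0.173 without (exact p = 0.1). Shares of 16.1% of the 50-base words of KRT8 and 24.5% of those of KRT18 recur in other genes, which include each other and processed pseudogenes. Words were sought on both strands, so those shared by KRT8 and KRT18 can come from the overlap of their exons rather than from repeated sequence. The labels do not state whether the counting used strand. Both levels are uncertain where reads were split or dropped.

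KRT19 (chromosome 17, 41523617 to 41528308, minus strand) encodes the smallest type I keratin, a common luminal marker. It had 19.4, 22.7 and 22.2 CPM in shACSL5_PA, against 39.3, 36 and 36.6 CPM in shControl_PA. Without palmitate it had 27, 26.8 and 31 CPM in shACSL5, against 53.6, 60.2 and 58.4 CPM in shControl. The 4 groups did not overlap. KRT19 fell with the knockdown by 0.80 on the log2 scale (SE 0.077, adjusted p = 9.28e-09) with palmitate and by 1.02 (SE 0.072, adjusted p = 2.36e-11) without. Palmitate lowered it by 0.40 (SE 0.078, adjusted p = 0.00068) in knockdown cells and by 0.62 (SE 0.07, adjusted p = 5.63e-07) in control cells. The interaction was 0.22 (95% interval 0.00 to 0.44, adjusted p = 0.183).

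AGR2 (chromosome 7, 16791811 to 16833433, minus strand) encodes a protein disulfide isomerase of the endoplasmic reticulum that mucous and luminal epithelia use for secretion. It had 5.73, 4.25 and 5.59 CPM in shACSL5_PA, against 22, 22 and 19.5 CPM in shControl_PA. Untreated, it had 4.08, 4.32 and 5.48 CPM in shACSL5, against 17.6, 18.6 and 16.1 CPM in shControl. The knockdown groups overlapped each other and stood far below both control groups. The log2 change with the knockdown was the largest of the 10 genes in both comparisons, at -2.03 (SE 0.12, adjusted p = 7.08e-12) with palmitate and -1.91 (SE 0.13, adjusted p = 1.08e-11) without. All 3 treated control libraries lay above the untreated ones, and the change of 0.28 (SE 0.11, adjusted p = 0.0599) was not called. It was called with limma voom (adjusted p = 0.0257), with the 2 compared groups fitted alone (0.0218), and without shACSL5 replicate 3 (0.0437), shControl_PA replicate 3 (0.0449) or shACSL5_PA replicate 2 (0.0421). In knockdown cells the change was 0.17 (95% interval -0.14 to 0.47), and the interaction was -0.11 (95% interval -0.49 to 0.27).

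**Figure D4:**
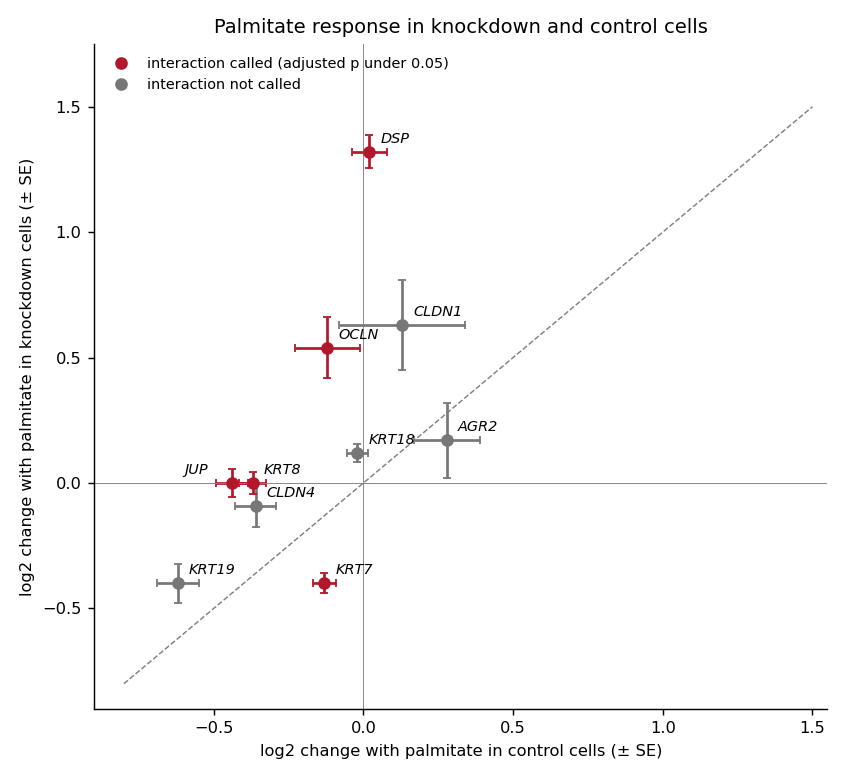
Log2 change with palmitate in knockdown cells (vertical, shACSL5_PA against shACSL5) against that in control cells (horizontal, shControl_PA against shControl), with SE bars and a dashed line where both are equal. DSP lies at 1.32 in knockdown and 0.02 in control cells, and 5 genes with a called interaction are in red.

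Across the 12 libraries, the log2 levels of CLDN4 and JUP ran together (Pearson r = 0.954), as did KRT8 and JUP (0.947), OCLN and KRT18 (0.953), and AGR2 and CLDN4 (0.949). CLDN1 correlated negatively with each of the other 9 genes, and KRT7 with DSP at -0.596. Among 10929 other genes with a mean of at least 5 CPM, the nearest to AGR2 was ACSL5 itself (r = 0.993). The nearest to CLDN4 was EHBP1L1 (0.997), to KRT19 the receptor gene S1PR3 (0.995), to OCLN the phosphatase gene PPP2CB (0.994), to KRT18 the moesin gene MSN (0.991) and to JUP the G protein subunit gene GNG7 (0.99). For KRT8 it was CAMK2G (0.987), for DSP the hypoxia factor EPAS1 (0.971), for CLDN1 PITPNA (0.952) and for KRT7 the Mediator gene MED9 (0.944). These 12 points share 4 groups and their libraries, so each r mostly reflects the order of the group means. EPAS1 averaged 23.2 CPM in shACSL5_PA and 28.4 CPM in shControl_PA, and 13.9 CPM in shACSL5 and 29.7 CPM in shControl.

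The counts over lists of related genes stand against the same background, in which the knockdown called 62.3% of all genes without palmitate (29.7% higher, 32.6% lower) and 50.5% with it (24.4% higher, 26.1% lower). The lists too were chosen with earlier results of these data known. Of 13 other desmosome and plakin genes 7 were measured above the filter, and without palmitate 4 fell (57.1%) and 2 rose (28.6%) with the knockdown. The desmosomal cadherin gene DSG2 averaged 134 ± 3.59 CPM in shACSL5 and 266 ± 13.4 CPM in shControl (log2 -0.99, SE 0.042, SD over n = 3). Its partner DSC2 averaged 6.14 ± 0.647 CPM in shACSL5 and 20.2 ± 1.58 CPM in shControl (log2 -1.72, SE 0.11), and the plakin gene EVPL fell by 0.38 (SE 0.057). PKP4, a plakophilin relative, rose to 170 ± 1.42 CPM in shACSL5, against 83.8 ± 5 CPM in shControl. With palmitate 3 fell (42.9%) and 2 rose (28.6%), DSG2 by a log2 change of -0.58 (SE 0.041) and DSC2 by -0.93 (SE 0.11). Palmitate in knockdown cells raised DSG2 by 0.36 (SE 0.043, adjusted p = 2.15e-06) and DSC2 by 0.44 (SE 0.12, adjusted p = 0.0086). The DSC2 call was lost without shACSL5 replicate 3 (0.368, adjusted p = 0.0517). The interaction was positive for DSG2 (0.41, adjusted p = 5.07e-05) and DSC2 (0.78, adjusted p = 0.00129), as for DSP, and negative for PKP4 (-0.46, adjusted p = 2.13e-05).

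Of 25 other tight junction genes 15 were tested, and without palmitate 10 fell (66.7%, against 32.6% of all genes) and 3 rose (20%, against 29.7%) with the knockdown, with a median log2 change of -0.248. CLDN12 averaged 87.9 ± 6.07 CPM in shACSL5 and 144 ± 1.82 CPM in shControl (log2 -0.71, SE 0.043). The adhesion receptor gene CXADR fell, with a log2 change of -1.03 (SE 0.15), and the cingulin relative CGNL1, at 0.339 ± 0.173 CPM in shACSL5 and 2.87 ± 0.628 CPM in shControl, fell with one of -3.03 (SE 0.43). With palmitate 7 fell (46.7%, against 26.1% of all genes) and 2 rose (13.3%, against 24.4%), a called share near the 50.5% of all genes, and LSR, the tricellular junction gene, rose by 0.84 (SE 0.12). Of 12 adherens junction genes 10 were tested, and 7 fell (70%) and 2 rose (20%) without palmitate, with a median of -0.295. The nectin-actin linker AFDN averaged 100 ± 4.08 CPM in shACSL5 and 168 ± 3.54 CPM in shControl. NECTIN3 fell by 0.76 (SE 0.06) and VCL by 0.41 (SE 0.028), while NECTIN1 rose by 0.97 (SE 0.073). The other gene that rose was the epithelial marker EPCAM, named after its value was seen and not run under the alternatives. It averaged 4.21 ± 0.837 CPM in shACSL5 and 2.22 ± 0.592 CPM in shControl (log2 0.92, SE 0.24, adjusted p = 0.00177). With palmitate EPCAM rose with the knockdown by 0.65 (SE 0.24, adjusted p = 0.0266). With palmitate 5 adherens genes fell (50%, against 26.1% of all genes) and 2 rose (20%, against 24.4%).

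All 6 hemidesmosome genes, whose products anchor keratin filaments to the basement membrane, fell without palmitate, with a median of -0.516, where 32.6% of all genes fell, and 5 fell with it, where 26.1% did. ITGB4 averaged 37.5 ± 1.84 CPM in shACSL5_PA and 52.2 ± 3.43 CPM in shControl_PA, and 48 ± 4.6 CPM in shACSL5 and 127 ± 7.64 CPM in shControl. It fell with palmitate in control cells by 1.29 on the log2 scale (SE 0.063), and its interaction was 0.93 (SE 0.094, adjusted p = 6.97e-07). Its partner ITGA6 fell with the knockdown by 1.1 (SE 0.036) without palmitate, the linker gene PLEC by 0.51 (SE 0.031) and CD151 by 0.52 (SE 0.04). Of 16 other keratin genes 4 passed the filter. Without palmitate 2 fell (50%, against 32.6% of all genes) and 1 rose (25%, against 29.7%) with the knockdown. KRT15 fell by 1.41 (SE 0.13) and KRT80 rose by 0.48 (SE 0.068). KRT81 fell by 0.47 (adjusted p = 0.0461), a call lost with RLE factors (0.0556), upper quartile factors (0.0548), no filter (0.105) and DESeq2 (0.0927). It was also lost with a replicate block (0.0514), with the 2 compared groups alone (0.0633), and when any shControl library was left out (0.0667 to 0.102). Leaving out shACSL5 replicate 2 (0.152) or 3 (0.109), shControl_PA replicate 1 (0.0505) or shACSL5_PA replicate 2 (0.0508) ended it too. With palmitate 2 rose (50%, against 24.4%) and 1 fell (25%, against 26.1%). There KRT81 rose by 0.63 (adjusted p = 0.019), a call lost without shControl_PA replicate 2 (0.0663) or shACSL5_PA replicate 3 (0.0764). Palmitate lowered KRT80 by 0.85 (SE 0.07) in knockdown cells and by 0.88 (SE 0.076) in control cells.

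**Figure D5:**
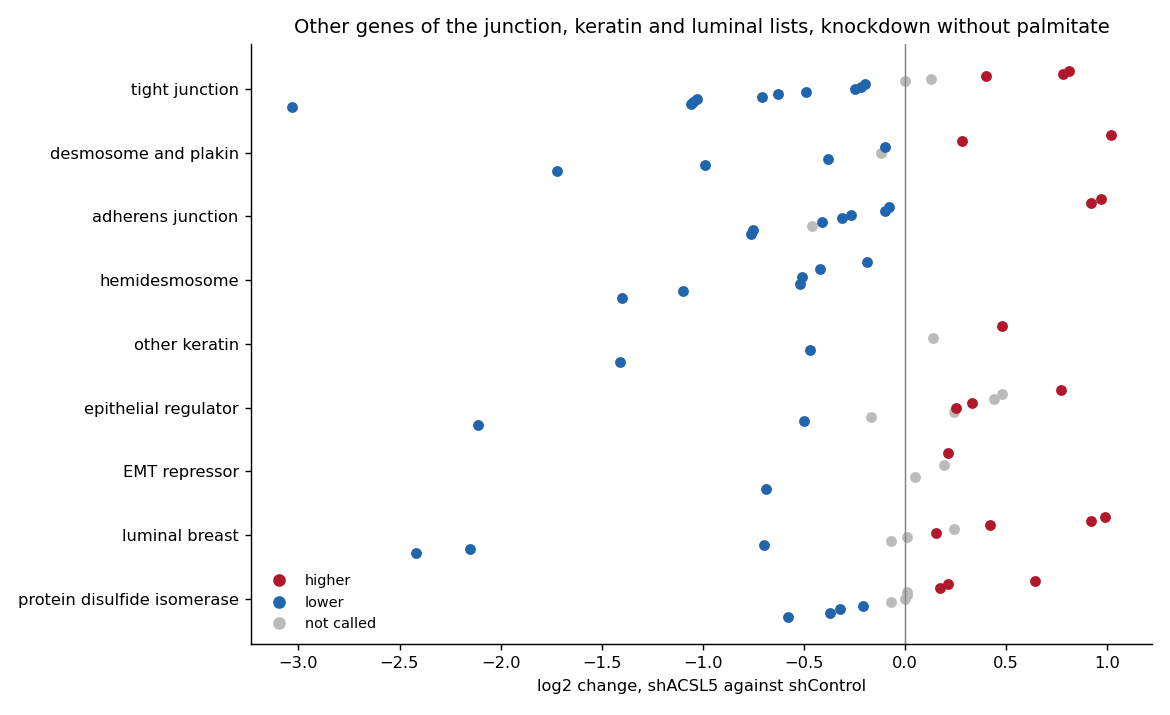
Log2 change in shACSL5 against shControl of each tested gene in 9 lists of related genes (1 point per gene), in red where called higher, in blue where called lower and in grey where not called. All 6 hemidesmosome genes lie left of 0, and the luminal and disulfide isomerase lists lie on both sides.

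Of 16 other luminal genes 10 were tested, and without palmitate 4 rose (40%, against 29.7% of all genes) and 3 fell (30%, against 32.6%) with the knockdown (median log2 change 0.08), shares near those of all genes. MLPH, a melanosome and vesicle transport gene, fell by 0.70 (SE 0.051). The receptor gene ERBB3 averaged 2.19 ± 0.632 CPM in shACSL5_PA and 2.55 ± 0.539 CPM in shControl_PA, and 1.41 ± 0.326 CPM in shACSL5 and 6.21 ± 0.459 CPM in shControl. It fell by 2.15 (SE 0.24) without palmitate, and the change with it was -0.22 (adjusted p = 0.477). CA12, a carbonic anhydrase gene, rose by 0.42 (SE 0.062). With palmitate 1 of the 10 rose and 2 fell, 10% and 20%, against 24.4% and 26.1% of all genes. Of 11 other disulfide isomerases, relatives of AGR2, 3 rose (27.3%) and 4 fell (36.4%) with the knockdown without palmitate, near the shares of all genes (29.7% and 32.6%). TXNDC5 rose by 0.64 (SE 0.03) and DNAJC10 fell by 0.58 (SE 0.042). Palmitate raised 8 of the 11 in knockdown cells and 9 of the 11 in control cells, where it raised 12.1% and 15.1% of all genes.

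Of 20 epithelial transcription factors, splicing factors and protease regulators 9 passed the filter, and without palmitate 3 rose (33.3%) and 2 fell (22.2%) with the knockdown, against 29.7% and 32.6% of all genes. GRHL1, at 0.447 ± 0.0496 CPM in shACSL5 and 1.96 ± 0.384 CPM in shControl, fell by 2.11 (SE 0.42), and the protease inhibitor gene SPINT2 fell by 0.50 (SE 0.042). The sorting adaptor gene AP1M2 rose by 0.77 (SE 0.045). Of 6 repressors of epithelial genes 4 were tested, and 1 rose and 1 fell with the knockdown, both with and without palmitate. ZEB1 averaged 49.3 ± 2.85 CPM in shACSL5_PA and 83.8 ± 8.65 CPM in shControl_PA, and 47.2 ± 3.06 CPM in shACSL5 and 76.2 ± 15.7 CPM in shControl. It fell with the knockdown by 0.77 (SE 0.098, adjusted p = 7.51e-07) with palmitate and by 0.69 (SE 0.099, adjusted p = 2.2e-06) without. ZEB2 rose by 0.21 (SE 0.084, adjusted p = 0.0304) without palmitate, a call that ended with library sizes alone (adjusted p = 0.0561) and when shControl replicate 2 (0.129, adjusted p = 0.209) or shACSL5 replicate 2 (0.145, adjusted p = 0.168) was left out. With palmitate SNAI2 rose with the knockdown by 0.53 (SE 0.15, adjusted p = 0.00563). SNAI2 fell with palmitate by 0.66 (SE 0.14) in knockdown cells and by 1.14 (SE 0.15) in control cells.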

How the data were processed

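Per the submitters' processing notes, reads were handled with fastp 0.22.0, HISAT2 2.1.0 and featureCounts on the GRCh38 build. The authors deposited whole read counts per gene, not normalized. The labels name no annotation release, strand setting or featureCounts version. Identifiers were matched to current symbols for 51928 of 57730 rows. The low-count filter (edgeR filterByExpr) kept 14706 genes. TMM factors and 1 quasi-likelihood model over 12 libraries (edgeR 4.0.16, R 4.3.3) gave log2 changes. The SE is the absolute change divided by the square root of F, and 95% intervals use the fit's degrees of freedom. Levels per kilobase use merged exons of GENCODE 29. The script was tested on simulated data in which far fewer genes changed than were called here. That test therefore does not check the scaling or the error rate when most genes change. Alternatives were RLE and upper quartile factors, library sizes alone, no filter, DESeq2 1.42.0, limma 3.58.1 voom, a replicate block, the compared groups alone, and leaving out each library. Ratios were tested by exact permutation within treatment. The 10 genes and all lists were chosen with earlier results of these data known. From each list up to 4 called genes of at least 1 CPM with the smallest p were named for the knockdown without palmitate and up to 2 for each other comparison. Correlations use log2 CPM with a prior count of 0.5. Replicates of a group differed beyond sampling noise, with a chi-square per degree of freedom of 2.24 to 4.36. CD24 and PECAM1 matched no row by current symbol. The row labelled F11R carries an identifier with no symbol in the reference table and was set aside. These 3 genes were not used here, though list sizes include them. Some genes of the lists are counted in their totals and not reported here by name.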

Additional observations from a re-analysis of the deposited data

Results flagged for a closer look

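The response to palmitate differed between knockdown and control cells, by the interaction test of the edgeR fit, for 5 of the 10 genes, where 14.5% of all 14706 genes were called. The interaction is the log2 change in shACSL5 cells minus that in shControl cells. It was 1.29 for DSP, 0.65 for OCLN, 0.43 for JUP, 0.37 for KRT8 and -0.27 for KRT7. For DSP and OCLN the change in knockdown cells was a rise, and for JUP and KRT8 the change in control cells was a fall.

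Among other genes it was called for 2 of 15 tight junction, 3 of 7 desmosome and plakin, 5 of 10 adherens junction and 4 of 6 hemidesmosome genes tested. Calls were made for 1 of 4 keratin, 2 of 10 luminal, 2 of 11 disulfide isomerase, 2 of 9 regulator and 0 of 4 repressor genes. These counts stand beside the 14.5% of all genes called. The junction genes were CLDN12 (0.20), CXADR (0.64), DSG2 (0.41), DSC2 (0.78), PKP4 (-0.46), AFDN (0.23), VCL (0.19), NECTIN1 (-0.37), NECTIN2 (0.21) and NECTIN3 (0.27). The hemidesmosome genes ITGA6 (0.38), ITGB4 (0.93), PLEC (0.14) and COL17A1 (0.71, adjusted p = 0.0164, named after its value was seen), the keratin KRT81 (1.1), and ERBB3 (1.93), XBP1 (-0.20), TXNDC5 (-0.25), P4HB (-0.26), SPINT2 (0.23) and KLF4 (-0.41) were called as well. Leaving out 1 library ended the call for CLDN12 (4 of the 12 libraries), CXADR (7), NECTIN1 (4), NECTIN2 (6), NECTIN3 (7), PLEC (6) and XBP1 (1), and RLE factors ended it for PLEC. COL17A1 was not run under the alternatives.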

How the results depend on the processing

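Of 990 values of the 10 genes under the alternatives, 946 kept their direction and their side of the threshold, 18 lost the call, 9 gained it and 17 turned sign, all of these in changes that were not called. In the knockdown without palmitate 8 to 10 of the genes were called over all alternatives, 10 with palmitate, 4 to 6 for palmitate in control cells, 4 to 6 in knockdown cells and 5 to 7 for the interaction. KRT8 with palmitate in knockdown cells stood at 0 with RLE factors and limma voom, -0.02 with upper quartile factors, -0.018 with library sizes alone, -0.004 with the compared groups alone and -0.033 to 0.06 without 1 library. JUP in that comparison stood at 0.006 with no low-count filter and -0.053 to 0.057 without 1 library. With palmitate in control cells DSP stood at -0.027 with library sizes alone and -0.039 to 0.082 without 1 library, and CLDN1 at -0.072 to 0.358. The interaction ran from -0.205 to 0.029 for AGR2 and from -0.081 to 0.119 for ACSL5 without 1 library. Within palmitate libraries the ratios turned to 0.058 (KRT8 to KRT18) and 0.224 (DSP to JUP), and without 1 library they ran from -0.07 to -0.043 and from -0.246 to -0.177. The cause was not tested.

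By the median, same-numbered libraries of different groups did not deviate together, with r = -0.005, against 0.005 for pairs of other numbers. Single same-numbered pairs ran from -0.133 to 0.19, and 5 of 18 lay above 0.1. With a replicate block 10, 10, 5, 6 and 5 of the genes were called for the knockdown, the knockdown with palmitate, palmitate in control cells, palmitate in knockdown cells and the interaction, as without it. The block gave exact p = 0.281 for both ratios.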
